A study of Homo sapiens with 6 samples.

Results

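Interferon regulatory factors (IRFs) are transcription factors that bind DNA through a shared tryptophan-rich domain at the amino terminus. The members followed here are the loci of IRF1, IRF2, IRF4, IRF5 and IRF8, and the data are peaks of H3K27ac, a histone acetylation found at promoters and enhancers in use. A window of the human genome build hg19 was set around each gene. It ran from 131.79 to 131.85 Mb of chromosome 5 for IRF1, from 185.29 to 185.42 Mb of chromosome 4 for IRF2 and from 0.37 to 0.43 Mb of chromosome 6 for IRF4. For IRF5 it ran from 128.56 to 128.61 Mb of chromosome 7, and for IRF8 from 85.91 to 86.03 Mb of chromosome 16. A peak was a member where it overlapped a window by at least 1 bp. This gave 66 peaks of 87864 in all, 31 of the 56420 M2 peaks and 35 of the 31444 THP-1 peaks.

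The groups were THP-1 cells, an established line from a human monocytic leukaemia that the labels call monocytes, and cells labelled as M2 macrophages, a state of alternative activation. The sources used here do not give how the macrophages were obtained, and the labels list no treatment, agent or time for either group. Both were kept in the same serum-containing medium. Each cell type had 1 library for H3K27ac, 1 for the factor YY1 and 1 for input DNA, and only the H3K27ac peak lists were analysed here. With 1 library per cell type nothing measures the spread between libraries, so the cell types were compared without a test, and intervals cover counting error only. In a bulk library, acetylation in fewer cells and less acetylation per cell cannot be told apart. The cell type labels were not checked against marker genes, because peaks were not assigned to genes beyond the 5 windows.

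As background, the IRFs divide the work of interferon and myeloid gene control among themselves. IRF1 is induced by interferon gamma and activates antiviral and antigen presentation genes, and IRF2 binds the same sites and was first described as its antagonist. IRF5 acts downstream of Toll-like receptors in inflammatory macrophages. IRF8 is a lineage factor of monocytes and dendritic cells that works with PU.1, and it is known to be controlled by enhancers beyond the end of the gene. IRF4, its closest relative, is a factor of B and T lymphocytes and dendritic cells that has also been tied to alternative macrophage activation.

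The promoters of IRF1 and IRF4 are shown because IRF1 is induced by interferon gamma and IRF4 is the one member without a THP-1 peak. The 250 bases before the gene start were taken from RefSeq, build GRCh38.p14. They were not laid over the hg19 peaks. In capitals is each match to TTCNNNGAA, the core of the gamma-activated site bound by STAT factors, a motif chosen after the sequences had been seen.
IRF1 (chr5:132490774-132491023, minus strand): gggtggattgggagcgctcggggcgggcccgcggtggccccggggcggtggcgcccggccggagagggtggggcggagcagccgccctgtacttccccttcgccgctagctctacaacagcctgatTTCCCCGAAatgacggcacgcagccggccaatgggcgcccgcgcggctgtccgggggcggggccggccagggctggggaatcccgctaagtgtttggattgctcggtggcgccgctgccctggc
IRF4 (chr6:391502-391751, plus strand): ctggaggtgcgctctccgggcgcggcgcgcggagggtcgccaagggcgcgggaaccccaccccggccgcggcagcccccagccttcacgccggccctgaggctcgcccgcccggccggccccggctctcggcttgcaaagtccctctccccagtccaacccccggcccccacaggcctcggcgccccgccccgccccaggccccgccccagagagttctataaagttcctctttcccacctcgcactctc

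The IRF1 stretch held 1 match to TTCNNNGAA and the IRF4 stretch 0, searched on both strands, where 6.57% of the 35116 RefSeq promoters held one. The core of the interferon-stimulated response element was in neither and in 3.02% of all promoters. Both stretches were rich in CpG, with 29 CpG in IRF1 and 28 in IRF4 against a median of 11. The table matched 4 of the 5 genes with 8 starts, and IRF2 was the gene without an entry. None of the other 6 stretches, 4 of IRF5 and 2 of IRF8, held either motif.

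Summed over the 5 windows the cell types had similar amounts of peak sequence, but the balance differed between loci. The M2 list had 45.1 kb of covered sequence and the THP-1 list 41.1 kb. In the windows of IRF1, IRF2 and IRF5, M2 peaks covered about as much more sequence than THP-1 peaks as they did across the genome. In the IRF8 window the balance was turned round, with 25.8 kb of THP-1 and 11.6 kb of M2 peaks. The IRF4 window held 2 small M2 peaks and no THP-1 peak.

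**Figure D1:**
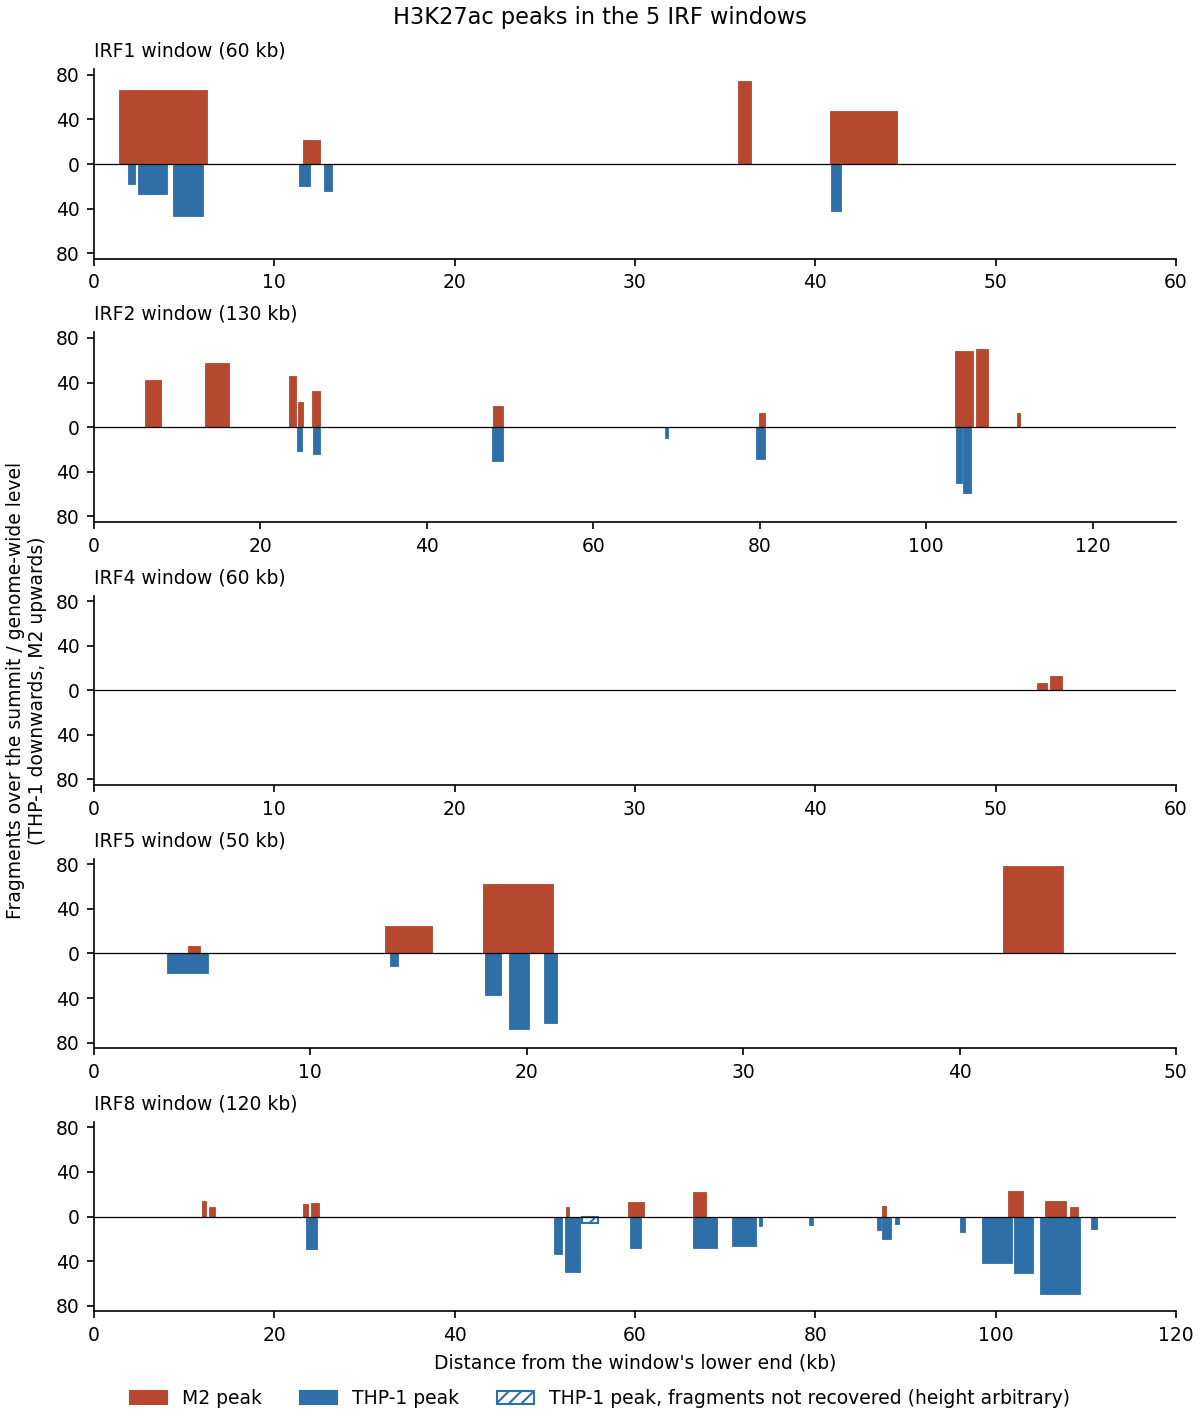
H3K27ac peaks in each window, at their distance in kb from the window's lower end. Bars are as wide as the peak, and their height is the number of fragments over the summit divided by the genome-wide level of that list (M2 upwards, THP-1 downwards). The hatched bar is a THP-1 peak whose fragments could not be recovered. The 17 THP-1 peaks of IRF8 lie mostly in the upper part of that window, and the IRF4 window holds 2 low M2 peaks.

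Of the 31 M2 peaks, 11 overlapped no THP-1 peak, which is 35.5% (exact 95% binomial interval 19.2 to 54.6), and in the whole list 63.0% overlapped none. Of the 35 THP-1 peaks, 11 overlapped no M2 peak, which is 31.4% (16.9 to 49.3), and in the whole list 24.7% did so. The THP-1 interval includes the value of the whole list and the M2 interval does not. Peaks of a window are not independent replicates and the intervals cover counting error only, so this is not a test of a difference. In lists cut to 31444 peaks each, 19 of the 35 THP-1 peaks were unmatched (54.3%), where 40.4% of the whole THP-1 list was, and 8 of the 18 M2 peaks left (44.4%), where 51.0% was. In the full lists, of the 11 unmatched THP-1 peaks 9 lay at IRF8, out of 17 THP-1 peaks there, a share above the 24.7% of the whole list. Of the 11 unmatched M2 peaks 5 lay at IRF2, out of 10 M2 peaks there, a share below the 63.0% of the whole list.

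IRF8 was the locus with more sequence inside THP-1 than inside M2 peaks. Its window held 17 THP-1 peaks with a mean width of 1515 bp and 11 M2 peaks with a mean width of 1056 bp. THP-1 peaks covered 21.5% of the window and M2 peaks 9.68%, a ratio of 2.22, and 9.03 kb lay inside peaks of both. Of 14461 tiles of 120 kb that held a peak of either list, THP-1 peaks covered at least 1.5 times as much as M2 peaks in 11.4%. The IRF8 window had more THP-1 peak sequence than 99.89% of these tiles, and more M2 peak sequence than 92.7%. Among the 9708 tiles with peaks of both lists, 4.09% had a lower ratio of M2 to THP-1 sequence, and the median ratio was 2.03 in favour of M2. Of 347 tiles with at least 10 THP-1 peaks, a group chosen after the data were seen, THP-1 peaks covered at least 1.5 times as much in 11.0%.

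**Figure D2:**
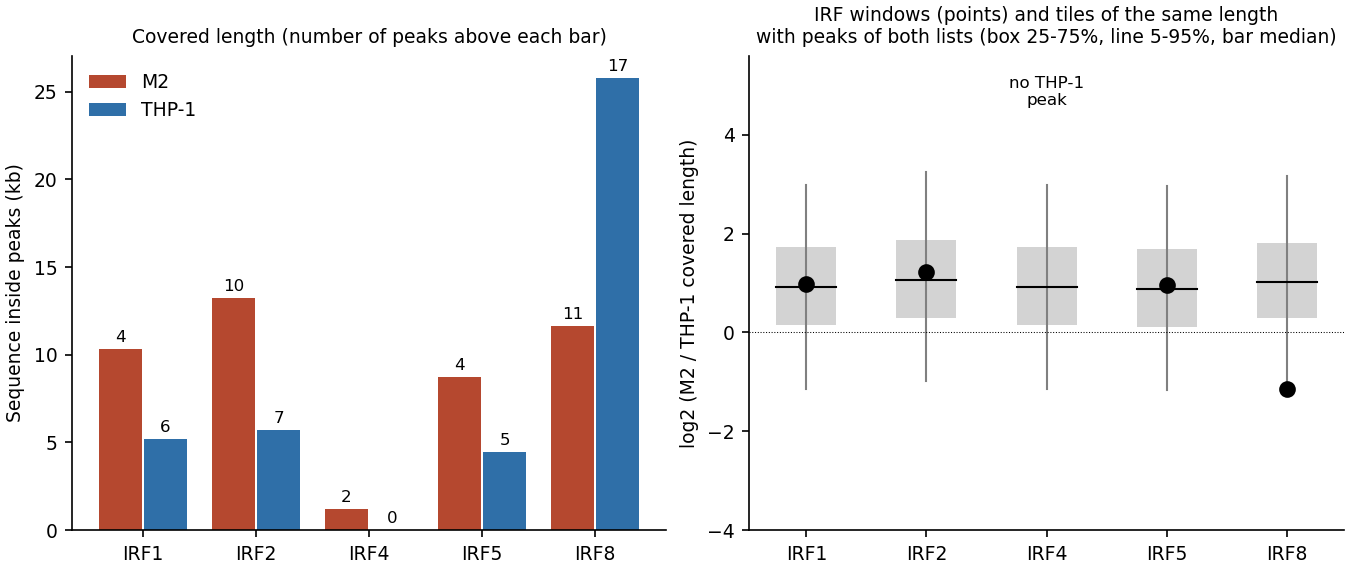
Left, sequence inside peaks in each window in kb, with the number of peaks above each bar. Right, log2 of the M2 over THP-1 covered length in each window (points) beside tiles of the same length with peaks of both lists (box 25% to 75%, line 5% to 95%, bar median). IRF1, IRF2 and IRF5 lie near the median of their tiles and IRF8 lies below 0.

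The THP-1 excess lay in the upper part of the IRF8 window, in the direction in which the gene is read in the RefSeq table. The longest stretch without a peak, 26.0 kb from 85934989 to 85961007, divided the window, a split chosen after the data were seen. Above it THP-1 cells had 24.6 kb in 16 peaks, 2.76 times the 8.89 kb that M2 cells had in 7. Below it the order was the other way, with 2.73 kb in 4 M2 peaks and 1.21 kb in 1 THP-1 peak. That M2 over THP-1 ratio of 2.27 was near the median of 2.03 in 120 kb tiles with both lists, though those tiles are longer. Each of the 7 upper M2 peaks overlapped a THP-1 peak, so M2 cells had no upper peak of their own. The 2 M2 peaks without a counterpart, at 85921985 to 85922466 and 85922768 to 85923478, were at the lower end, 11019 and 10007 bp from the nearest THP-1 peak.

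The widest THP-1 peak of the window, and of all the IRF windows, was at 86014939 to 86019312. It was 4374 bp wide, wider than 99.4% of THP-1 peaks, with 122 fragments over its summit and a fold enrichment of 5.59. The peak list gives no fragment counts, and these were solved from the fold enrichment and p-value of each peak. A pair of M2 peaks lay inside it, at 86015517 to 86017859 with 33 fragments and a fold of 5.43, and at 86018245 to 86019117 with 19 and a fold of 4.52. To compare the lists, fragments were divided by the genome-wide level of each library. On that scale the highest summit stood at 69.1 times the level in THP-1 and at 14.3 in M2 cells. This was a 4.82-fold difference (counting interval 3.26 to 7.31). The THP-1 summit lay 105.96 kb and the M2 summit 106.94 kb from the window's lower end, so they are not the same site. The fold enrichments, each over its own background, were close, with backgrounds of 11.9 times the lowest of the list in THP-1 and 2.22 in M2.

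The greatest contrast at a matched site lay at 85962281 to 85963901, where the THP-1 summit held 88 fragments and the M2 peak inside it 19. The scaled THP-1 value was 6.04 times that of M2 (3.65 to 10.5), and only 0.45% of the 15162 matched pairs of the genome had a lower M2 over THP-1 ratio. The deposited fold enrichments were nearly equal there, 5.65 in THP-1 and 5.19 in M2, with backgrounds of 8.35 and 1.17 times the lowest. Beside it, at 85961008 to 85961905 (59 fragments) and 85964102 to 85965930, lay THP-1 peaks without an M2 counterpart and in the highest 20% of their list by -log10 q. At the second of these the fragments could not be recovered, and its fold enrichment was 6.38.

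The site nearest to equality was the one of highest fold enrichment in both lists of this window. The M2 peak at 85976432 to 85977830 had 51 fragments and a fold of 12.7, and the THP-1 peak at 85976474 to 85979125 had 49 fragments and a fold of 6.83. Scaled, THP-1 was 1.25 times M2, with an interval of 0.829 to 1.89 that includes 1. The summits lay 24 bp apart. The fold enrichments differ more than the fragments because each is relative to its own background, which was 1.27 times the lowest in M2 and 3.58 in THP-1.

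In all, peaks of both lists overlapped at 7 places in the IRF8 window, and the scaled THP-1 summit was the higher at each. The interval excluded 1 at 6 of the 7. Over the genome, with the interval excluding 1, the THP-1 summit was higher at 25.8% of 18814 such places and the M2 summit at 22.4%. The median M2 over THP-1 ratio of these places was 0.949, so a higher THP-1 summit without regard to the interval was common. The remaining IRF8 places were at 85933195 to 85934988 (27 M2 and 52 THP-1 fragments), 85969205 to 85970964 (30 and 50), 85997427 to 85998394 (21 and 35) and 86008515 to 86014122 (52 and 89). By fold enrichment the direction was not the same. At the same summits the M2 fold was the higher at 4 of the 7 places, at 85934025 (3.64 against 2.41), 85976432, 85997427 (5.93 against 5.64) and 86011374 (11.0 against 4.91), and the THP-1 fold at 3. Over the genome the M2 fold was the higher at 84.8% of such places.

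At IRF8 the local background was higher in THP-1 than in M2 at all 7 places, relative to the lowest of each list. The same held at 15745 of the 18814 places of the genome. The median ratio was 4.17 at the 7 places, against 2.17 over the genome. Over all peaks of the window the median THP-1 background was 3.71 times the lowest, below the 4.99 of the whole list, but it was 8.35 to 11.9 at the THP-1 peaks starting at 85933486, 85962281, 86012072 and 86014939. The part of the background in the IRF8 result was not tested.

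**Figure D3:**
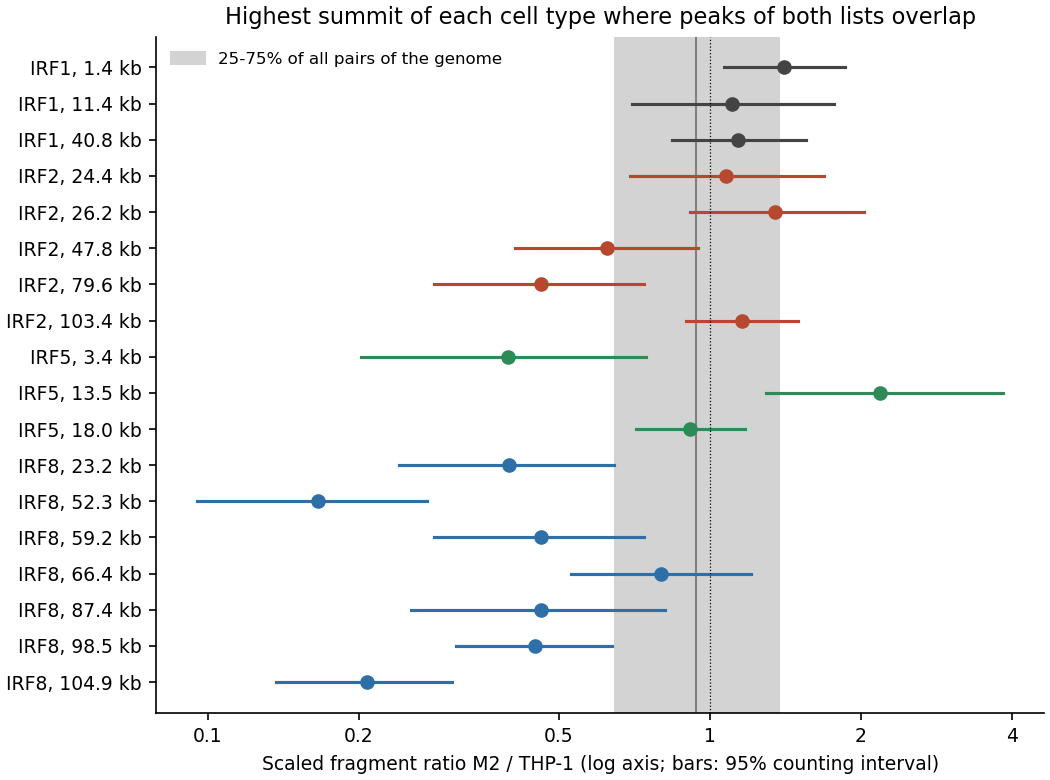
Scaled ratio of M2 to THP-1 fragments at the highest summit of each list, at the 18 places where peaks of both lists overlap, on a log axis with 95% counting intervals. Labels give the distance from the window's lower end in kb, and the grey band spans the middle of the matched pairs of the genome (0.647 to 1.38). All 7 IRF8 points lie below 1. The 3 IRF1 points lie above it, and the interval of 1 of them excludes 1.

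IRF1 carried 2 broad M2 peaks, and the THP-1 peaks under them were narrower. The 4 peaks in M2 covered 10.3 kb, which is 1.98 times the 5.21 kb under the 6 peaks in THP-1. Among 21952 tiles of 60 kb with a peak, M2 peaks covered at least 1.5 times as much as THP-1 peaks in 70.7%, and the median ratio of tiles with both was 1.89. The IRF1 window was thus rich in peaks in both lists, above 96.6% of tiles for M2 and 95.5% for THP-1, with an ordinary balance between them.

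The broadest IRF1 peak, at 131791398 to 131796256 in M2, was 4859 bp wide and had a higher -log10 q than 97.4% of M2 peaks. It held 152 fragments at its summit and spanned 3 THP-1 peaks, 411, 1584 and 1619 bp wide, with 32, 47 and 83 fragments. At the highest summits M2 was 1.40 times THP-1 (1.07 to 1.86). These summits lay 2.68 kb (M2) and 5.71 kb (THP-1) from the window's lower end, so this ratio does not compare the same site. The THP-1 summit nearest to the M2 one, at 2.90 kb, was that with 47 fragments. A second broad M2 peak, at 131830805 to 131834535, was 3731 bp wide where the THP-1 peak was 546 bp wide, 131830900 to 131831445. Their summits held 110 and 74 fragments, a scaled ratio of 1.14 (0.841 to 1.55). They lay 2543 bp apart, with the M2 summit outside the THP-1 peak, so the ratio does not compare the same site.

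A further M2 peak of the IRF1 window, at 131825696 to 131826441, had no THP-1 counterpart within 4458 bp. With 172 fragments it was the highest M2 summit at IRF1, above 94.7% of M2 peaks. Its fold enrichment of 2.75 was above only 3.63% of the list, because the background there was 26.8 times the lowest. The number of THP-1 fragments at this site is in no peak entry, and its part in the missing THP-1 call was not tested. At the remaining matched place of IRF1 the summits did not differ beyond counting error, with 49 fragments in M2 at 131801600 to 131802563 and 34 in THP-1 at 131801382 to 131801992, a ratio of 1.11 (0.699 to 1.77). A THP-1 peak at 131802783 to 131803218 with 42 fragments ended the cluster, 219 bp beyond the M2 peak.

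At IRF2 the M2 list had 10 peaks (13.2 kb) and the THP-1 list 7 (5.70 kb), with 2.32 times as much sequence in M2. In tiles of 130 kb with both lists the median ratio was 2.08, and M2 peaks covered at least 1.5 times as much in 71.5% of 13704 tiles with a peak. Of the 10 M2 peaks 5 had no THP-1 counterpart, where 63.0% of the whole M2 list had none. Among them were the first 3 M2 peaks from the lower end, and 2 of these 3 were strong. The one at 185303392 to 185306243 was the widest of the window at 2852 bp, held 132 fragments and lay 8181 bp from the nearest THP-1 peak. The other, at 185296165 to 185298113, had the highest fold enrichment at 9.88, with 97 fragments, and lay 16311 bp away.

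In the middle of the IRF2 window THP-1 cells had the higher summits. The widest THP-1 peak, 185337781 to 185339115, was also the one of highest fold enrichment (5.56) and held 54 fragments against 44 in M2. Scaled, THP-1 was 1.60 times M2 (1.05 to 2.44), with summits 591 bp apart. At 185369574 to 185370593 the numbers were 50 in THP-1 and 30 in M2, a ratio of 2.17 (1.36 to 3.54), with summits 300 bp apart. At the pairs near 185314464 and 185316204 the M2 summits held 52 and 74 fragments and the THP-1 summits 37 and 42, and neither interval excluded 1.

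Toward the upper end of IRF2 lay its highest summits in both lists. An M2 peak at 185393399 to 185395655 with 157 fragments faced THP-1 peaks of 89 and 104 fragments, a ratio of 1.16 (0.898 to 1.498). Next to it, at 185395933 to 185397366, an M2 peak with 161 fragments had no THP-1 counterpart, although the nearest THP-1 peak ended 560 bp away. The background at the THP-1 peaks here was 23.4 and 21.1 times the lowest, and 9.81 and 11.9 times at the M2 peaks.

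IRF5 joined a matched cluster to a strong peak of M2 cells alone. The M2 list had 8.75 kb in 4 peaks, 1.96 times the 4.46 kb of the THP-1 list in 5. M2 peaks covered at least 1.5 times as much in 70.2% of 24091 tiles of 50 kb with a peak. Of these tiles 36.6% had no THP-1 peak, and in tiles with peaks of both lists the median ratio was 1.85. The M2-only peak at 128602010 to 128604803 was the strongest of all the IRF windows. It held 180 fragments at a fold enrichment of 16.4, had a higher -log10 q than 98.99% of M2 peaks, and lay 20621 bp from the nearest THP-1 peak. In the RefSeq table the next protein-coding gene on the higher side of IRF5 is TNPO3, a nuclear import receptor, and to which gene the peak belongs was not determined.

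The matched places of IRF5 differed among themselves. An M2 peak at 128577961 to 128581194, 3234 bp wide with 143 fragments, spanned 3 THP-1 peaks with 66, 120 and 110 fragments, and the ratio of the highest summits was 0.914 (0.712 to 1.17). That interval includes 1, but these summits lay 20.44 kb (M2) and 19.44 kb (THP-1) from the window's lower end. The ratio thus does not compare the same site. Smaller peaks on the lower side went in opposite directions. At 128573469 to 128575614 the M2 peak had 57 fragments and the THP-1 peak 20, with M2 2.19 times THP-1 (1.29 to 3.84), but their summits were 1300 bp apart. At 128563365 to 128565290 THP-1 had 31 fragments and M2 16, with THP-1 2.53 times M2 (1.34 to 4.95) and summits 55 bp apart.

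IRF4 had the least sequence inside H3K27ac peaks of the 5 loci in both lists. Its M2 peaks lay at 422309 to 422846, with 15 fragments and a fold enrichment of 3.41, and at 423035 to 423700, with 29 fragments and a fold of 8.65. Together they covered 1.20 kb, 2.01% of the window. They ranked above 3.33% and 56.3% of M2 peaks by -log10 q, so the first was near the lower limit of the list. The THP-1 list had no peak in the window, and its nearest was 123720 bp from the first M2 peak. Of 20411 tiles of 60 kb with an M2 peak, 37.5% had no THP-1 peak either, so such a window is common in these lists. A list of peaks shows only what passed its threshold, and lower THP-1 signal at IRF4 was not measurable from it.

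Across the loci, pairs of peaks that overlapped each other and no other peak numbered 12. The interval of the scaled ratio lay above 1 in 1 pair and below 1 in 6, of which 3 were at IRF8. Over all 15162 pairs of the genome these shares were 21.4% with M2 higher and 25.5% with THP-1 higher. The median M2 over THP-1 ratio was 1.12 at IRF1 (2 pairs), 0.851 at IRF2 (4 pairs), 1.29 at IRF5 (2 pairs) and 0.460 at IRF8 (4 pairs), against 0.937 for the genome (interquartile range 0.647 to 1.38). With runs of several overlapping peaks included, the median turned to 1.08 at IRF2 and 0.914 at IRF5 and was 0.448 at IRF8. No direction is therefore read from the medians of IRF2 and IRF5. At IRF1 the interval of each pair includes 1 and the summits lay 570 and 2543 bp apart, so no direction is read there either. By covered sequence the order in THP-1 cells was IRF8, IRF2, IRF1, IRF5 and IRF4, and in M2 cells IRF2, IRF8, IRF1, IRF5 and IRF4. These windows differ in length, and per length IRF8 was first in THP-1 cells at 21.5% of the window, while IRF5 (17.5%) and IRF1 (17.2%) were first in M2 cells.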

How the data were processed

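Chromatin was fixed with formaldehyde and sonicated, and libraries were paired-end sequenced, per the labels' protocols. The submitters' processing notes list Bowtie2, MACS2 version 2.1.0 and hg19 and give no settings. For each peak the authors deposited a fold enrichment, a ratio over the local background, with its -log10 p and -log10 q. The deposited score, derived from the -log10 q, was not used. The Y chromosome was left out.

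Peaks were compared in Python 3.11.15 with scipy 1.17.1. Covered length was clipped to the window, and tiles cut the genome into pieces of the same length. Tiles without a peak of the other list count among those covered at least 1.5 times as much. Whole fragments over a summit were solved from the fold enrichment, (pileup + 1)/(background + 1), and the Poisson p-value. With the M2 pileup scaled by 0.842 and the THP-1 pileup not scaled, 99.995% and 100% of peaks gave whole fragments within 0.02, against 9.57% and 11.8% at a typical other scale. A single solution remained for 98.3% and 96.6%. The genome-wide level is the lowest background, 1.94 in M2 and 1.77 in THP-1 in units of the pileup, which in M2 is scaled. The median summit held 39 fragments in each list. Fragment numbers are thus inferred, and the sources used here do not give which library set the background. Among peaks simulated without scaling a single solution was found for 96.3% and was right in 100%. Fragment ratios carry exact conditional binomial 95% intervals.

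Single peaks are named where widest or of highest fold in their list and window, where overlapping such a peak, where unmatched and in the highest 20% by -log10 q, or where a list has 6 or fewer peaks in the window. Others were chosen after their values were seen, as was the split of the IRF8 window. Members, lists and comparisons were chosen with earlier results of these data known. The planned list of further IRF genes and partners was not made, because no hg19 annotation was used here. Other settings tried were a stricter -log10 q, lists of equal length, merged peaks, a stricter overlap, wider windows, another scaling and runs of overlapping peaks.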

Additional observations from a re-analysis of the deposited data

How the results depend on the processing

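No paired analysis was possible because each group has 1 library. Ratios and counts were taken as moved past 1.5 times, and shares when outside their interval. Of 93 values under other settings, 70 stayed within these limits. For shares this limit is loose, because windows with few peaks give wide intervals. The shared THP-1 share at IRF8 fell from 47.1% to 23.5% in lists of equal length, inside its interval of 23.0 to 72.2. The M2 share at IRF5 fell to 33.3% at the stricter -log10 q, inside 19.4 to 99.4. Shares within their limits are therefore not shown to be stable. THP-1 peaks covered more than M2 peaks at IRF8, and M2 peaks more than THP-1 peaks at IRF1, IRF2 and IRF5, under every setting tried. With only peaks at a -log10 q from 10 upwards, the M2 over THP-1 ratio was 4.76 at IRF1 and 5.55 at IRF5. Peaks numbered 2 THP-1 at IRF1, 3 THP-1 at IRF2, 1 M2 at IRF4, 2 THP-1 at IRF5, and 5 M2 and 11 THP-1 at IRF8. The shared shares were then 100% (THP-1, IRF1), 14.3% (M2, IRF2) and 33.3% (THP-1, IRF2). In lists of 31444 peaks each, IRF4 kept 1 M2 peak and IRF8 4, with a covered ratio of 0.228 at IRF8 and 19 unmatched THP-1 peaks over all windows in place of 11. With peaks within 1000 bp merged, 3 THP-1 peaks were left at IRF1 (100% shared), 1 M2 at IRF4, 3 THP-1 at IRF5 and 10 THP-1 at IRF8. By fold enrichment, a setting added after the data were seen, THP-1 was the higher at 3 of the 7 IRF8 places in place of 7. The median fragment ratio turned round at the highest summits of overlapping runs, to 1.08 at IRF2 and 0.914 at IRF5, where runs with several peaks enter. The small number of pairs per window limits these medians, and few fragments limit single ratios: at 21 M2 and 35 THP-1 fragments the interval ran from 0.255 to 0.813.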

Other observations

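Windows widened by 50 kb on each side showed how far the pattern of each locus reached. Around IRF8 the widened window held 28.6 kb in 19 THP-1 peaks and 18.7 kb in 17 M2 peaks. THP-1 peaks covered 1.53 times as much, but the window itself already held 25.8 kb of THP-1 and 11.6 kb of M2 peaks. The flanks added 2 THP-1 and 6 M2 peaks, and more M2 than THP-1 sequence. The THP-1 excess thus did not extend to the flanks. Around IRF2 the M2 list had 35.4 kb in 28 peaks, 3.17 times the 11.2 kb of the THP-1 list in 14. Around IRF1 it had 29.3 kb in 16 peaks, against 16.2 kb in 14 peaks of the THP-1 list. Around IRF5 THP-1 peaks were the more numerous, 11 against 7, but covered less, 9.47 kb against 13.9 kb. Around IRF4 the widened window added no peak of either list.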
